A study of Mus musculus with 6 samples.

Results

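Mature oligodendrocytes of the developing mouse suprachiasmatic nucleus (SCN), the hypothalamic pacemaker of daily rhythms, were described from single-nuclei RNA sequencing. The members are the nuclei that the authors' deposited annotation names "11 Mature oligodendrocytes", 169 of 22796 annotated nuclei. Each was placed in a library by its barcode, and all 169 could be placed, 4 at GD17.5, 7 at PND02, 20 and 49 in both libraries of PND10, 10 and 79 at PND30. They were compared with the 692 nuclei of the cluster of NG2 cells or oligodendrocyte progenitor cells (OPCs), named "10" in the same annotation.

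The study collected SCN from untreated wild-type C57BL6/J mice at gestational day 17.5 (GD17.5) and at postnatal days 2, 10 and 30 (PND02, PND10 and PND30). At each stage, SCN from 10 fetuses or pups, 1 male and 1 female of each of at least 5 mothers, was micro-dissected from 250 µm sections and pooled. GD17.5 and PND02 have 1 library each, and PND10 and PND30 have 2 each. Per the methods, tissue was pooled by stage, and the later stages, PND10 and PND30, were prepared and sequenced again to recover more nuclei. The libraries of a stage may therefore be repeats of 1 pool, and p-values cover the spread between these libraries, which may be technical.

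Oligodendrocytes are the glia that wrap axons in myelin, a lipid-rich membrane that speeds conduction. They arise from OPCs, which divide, migrate and persist in the adult brain. A progenitor that leaves the cell cycle first becomes a premyelinating oligodendrocyte, and then switches on the genes of myelin proteins and of myelin lipid synthesis. In rodents most myelin is laid down after birth. Fa2h, an enzyme that hydroxylates the fatty acids of myelin lipids, and Olig2, a transcription factor of the whole lineage, are the markers given for the cluster. The rows of the deposited count tables carry no gene names, so neither marker could be looked up and the label was not checked against them. Features are therefore rows of the count table, and those singled out are given by their row number counted from 1.

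The 6 libraries held between 771 and 5468 annotated nuclei and between 10921890 and 31389145 UMIs (unique molecular identifiers, 1 for each counted RNA molecule). The mature oligodendrocytes of a library summed to 20418 UMIs at GD17.5 and 42509 at PND02. The PND10 sums were 187627 and 260062 UMIs, and the PND30 sums 102195 and 277139. Of their barcodes, 2 were also listed in another library, and no 2 of the 169 nuclei shared a barcode.

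Mature oligodendrocytes were rare before PND10. They made up 0.0813% of nuclei at GD17.5 (exact Clopper-Pearson 95% interval 0.0222 to 0.208%) and 0.126% at PND02 (0.0507 to 0.259%). The share was 1.47% and 1.04% in the PND10 libraries, against 1.30% and 1.44% in the PND30 libraries. The stages overlapped, with means of 1.25% ± 0.30 and 1.37% ± 0.10 (SD, n = 2 libraries each) and a two-sided exact permutation p of 1, where 2 libraries against 2 cannot give less than 0.33. The difference, 0.116 percentage points, changed sign to -0.0986 without PND10 replicate 2. Intervals on shares cover counting error only.

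The progenitors had their highest shares at PND10. OPCs were 2.09% of nuclei at GD17.5 and 3.29% at PND02. Their share was 5.66% and 5.69% at PND10 but 1.95% and 0.841% at PND30. Within both clusters together, mature oligodendrocytes were 3.74% (1.03 to 9.30%) at GD17.5 and 3.68% (1.49 to 7.44%) at PND02, which is about 26 OPC nuclei for each mature one. This share was 20.6% and 15.5% at PND10, against 40% and 63.2% at PND30. Every PND30 library lay above every PND10 library, with means of 51.6% ± 16.4 against 18% ± 3.65 (SD, n = 2) and the smallest exact permutation p the design allows, 0.33. Without PND30 replicate 2 the difference of 33.6 percentage points was 22.0. Among non-neuronal nuclei the share was 4.49% and 4.87% at PND10, against 8.85% and 14.3% at PND30. The share of extra-SCN neurons, which depends on how much neighbouring tissue a dissection holds, was 30.9% and 26.4% at PND10 and 14.0% and 6.89% at PND30, and its part in these shares was not tested.

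**Figure D1:**
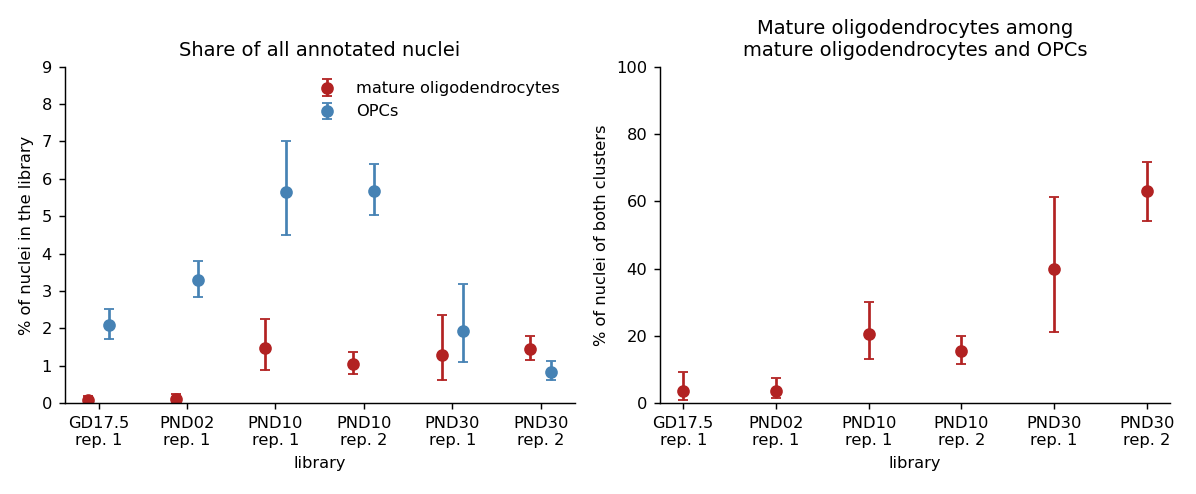
Left, the percentage of annotated nuclei in each library that are mature oligodendrocytes (red) or OPCs (blue). Right, mature oligodendrocytes as a percentage of the nuclei of both clusters. Points are libraries and bars are exact 95% intervals, which cover counting error only. The red points on the left overlap between PND10 and PND30, while those on the right run from 15.5% and 20.6% at PND10 to 40% and 63.2% at PND30.

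A mature oligodendrocyte nucleus held more RNA molecules than an OPC nucleus of the same library from PND10 on. The PND10 median was 9134.5 UMIs per nucleus against 6408 in OPCs in replicate 1, and 4858 against 3641.5 in replicate 2. At PND30 it was 10192.5 against 8945 in replicate 1 and 3429 against 2015.5 in replicate 2. The median was higher in 4 of 4 libraries, by 0.47 ± 0.24 on the log2 scale (SD, n = 4), which is 1.39-fold, with a two-sided exact sign-flip permutation p of 0.13, the smallest that 4 pairs allow. At PND02 the medians were 5837 and 4584, and at GD17.5, with 4 nuclei, they were 3755.5 and 4883.

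Fewer different features were detected in mature oligodendrocytes at equal depth. When each nucleus was thinned to 750 UMIs, the authors' lower limit, the median number of features was 557 and 553 at PND10, against 564 and 578 in OPCs. For PND30 it was 543.5 and 516, against 572 and 565.5. Mature oligodendrocytes were lower in 4 of 4 libraries, by -0.07 ± 0.05 on the log2 scale, with an exact sign-flip permutation p of 0.13. Without thinning the order was the opposite, 0.23 on the log2 scale, with the depths above left in. The single most abundant feature held 2.57% and 3.67% of the summed UMIs in mature oligodendrocytes at PND10, against 4.86% and 8.86% at PND30, after thinning each sum to 20000 UMIs. In the libraries from PND02 on the same feature was the most abundant in OPCs as well, at 2.00 to 3.17% of their UMIs. It was not particular to the lineage, with 3.19 to 5.60% in mature astrocytes and 2.92 to 5.05% in Avp+ neurons at PND10 and PND30.

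Features that set the cluster apart from OPCs are a description, since the annotation was made from the expression of these nuclei. Of 11187 features with at least 20 UMIs over the 8 sums, 69 (0.617%) were at least 4-fold higher in mature oligodendrocytes than in OPCs in all 4 libraries of PND10 and PND30, and 108 (0.965%) were at least 4-fold lower, on CPM plus 10, where CPM scales the counts of a sum to the same total. The features just inside and just outside the limit had smallest log2 ratios of 2.002 and 2.000 for the higher set, and of -2.01 and -1.99 for the lower set. The higher set held 5.65% and 5.05% of the UMIs of mature oligodendrocytes at PND10 and 9.40% and 8.81% at PND30. In OPCs it held 0.263 to 0.297%, and in mature astrocytes 0.284 to 0.310%. Of the 69 features, 38 were also at least 4-fold above neurons, astroglia, microglia and endothelial cells. The lower set held 9.26 to 10.8% of the UMIs of OPCs, 1.28% and 1.20% of those of mature oligodendrocytes at PND10 and 0.824% and 0.721% at PND30.

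The libraries of GD17.5 and PND02 had no part in choosing these sets. There, the higher set held 3.15% and 4.22% of the UMIs of the 4 and 7 mature oligodendrocyte nuclei, against 0.308% and 0.256% in OPCs. It was higher than in OPCs for 50 of 69 features at GD17.5 and for 59 of 69 at PND02, where over all 11187 features 30.6% and 37.5% were higher. The lower set held 2.54% and 1.70% in mature oligodendrocytes and 6.01% and 8.48% in OPCs, with 98 and 106 of 108 features lower, against 68.6% and 62.3% of all features. In these small sums of mature oligodendrocytes, 64 and 72 of the 108 features were detected, and 5164 and 7003 of all 11187. An undetected feature counts as lower if OPCs held any UMI of it. At GD17.5, 18 of the 69 features were lower and 10 of the 108 were higher. These nuclei were also named from their expression, so a contrast to OPCs was in part fixed by the annotation, and no test was made.

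**Figure D2:**
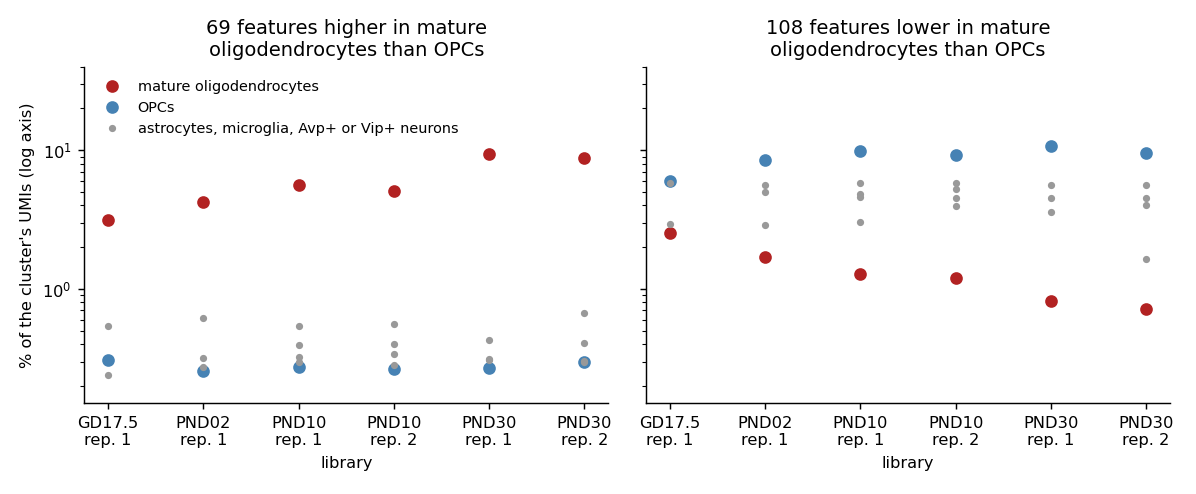
Percentage of a cluster's UMIs (log axis) that fall in the 69 features higher (left) and the 108 features lower (right) in mature oligodendrocytes than in OPCs, 1 point per library and cluster. Grey points are mature astrocytes, microglia, Avp+ neurons and Vip+ neurons with at least 10 nuclei. Mature oligodendrocytes lie above every other cluster drawn on the left, from 3.15% at GD17.5 to 9.40% in a PND30 library, and run from 2.54% at GD17.5 to 0.721% in a PND30 library on the right.

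Row 31240 had the highest ratio to OPCs in its lowest library. It stood at 1224 CPM in mature oligodendrocytes at GD17.5, 2117 at PND02, 8661 and 7091 at PND10, then 37458 and 28625 at PND30. It was thus between 2.86% and 3.75% of all UMIs of the cluster at PND30. OPCs held 17.4 CPM at GD17.5, 22.8 at PND02, 62.1 and 48.0 at PND10, and 86.1 and 205 at PND30. At least 1 UMI was found in 155 of 158 mature oligodendrocyte nuclei of PND10 and PND30. In OPCs, which hold little of it, the share of nuclei with a UMI ran from 13.8 to 39.1%. Row 11922, the other feature of the highest ratio, was at 1375 and 1046 CPM in mature oligodendrocytes at PND10 and 2016 and 1855 at PND30, with 0 to 12.8 CPM in OPCs.

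The features lowest against OPCs were nearly absent at PND10 and PND30. Row 8144 gave 3 UMIs in the 158 mature oligodendrocyte nuclei of PND10 and PND30, all in PND30 replicate 2. It was found in 94.8% and 91.0% of OPC nuclei at PND10 and in 100% and 87.0% at PND30, at 1103 to 1670 CPM. At GD17.5 it was found in 39.8% of OPC nuclei, and at PND02 in 72.1%. Row 10497 gave 12 UMIs in mature oligodendrocytes, in 10 of 158 nuclei, and 515 to 930 CPM in OPCs. At GD17.5 the order was the opposite, with 245 CPM (5 UMIs in 2 of 4 nuclei) against 132 CPM in OPCs. Row 10497 was not particular to progenitors, since Vip+ neurons held 1661 CPM.

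Of the clusters whose sums held at least 40000 UMIs, OPCs had the profile most like that of mature oligodendrocytes in each of the 4 libraries. Pearson's r across features, on log2 CPM of sums thinned to 40000 UMIs, was 0.38 to 0.51 with OPCs. It was 0.30 to 0.35 with mature astrocytes, 0.26 to 0.33 with microglia and 0.21 to 0.30 with Avp+ neurons. These values are across features of 1 library, which are not independent replicates, and share the depth and background of the library.

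The place of each nucleus between OPCs and mature oligodendrocytes was measured with a lineage score. It is the mean over the UMIs of a nucleus of the log2 ratio of a feature's share in a mature oligodendrocyte profile and in an OPC profile, both made from other libraries. Mature oligodendrocyte nuclei had median scores of 0.12 at GD17.5, 0.44 at PND02, 0.40 and 0.45 at PND10, and 1.07 and 1.04 at PND30. OPC nuclei had medians between -0.74 and -0.44. In each of the 6 libraries the lowest mature oligodendrocyte nucleus lay above the highest OPC nucleus. Within the mature cluster the scores ran from -0.35 to 1.31 in PND10 replicate 1 and from 0.14 to 1.58 in PND30 replicate 2. Of 169 mature oligodendrocyte nuclei, 12 lay on the OPC side of the midpoint of the 2 medians of their library, and 0 of 692 OPC nuclei lay on the other side. The separation of the clusters was used by the annotation and is no test.

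Between stages the library medians of the lineage score did not overlap in the mature cluster, while its single nuclei overlapped widely. The medians averaged 0.43 ± 0.04 at PND10 and 1.06 ± 0.02 at PND30 (SD, n = 2), a difference of 0.63 with an exact permutation p of 0.33, the smallest possible. In OPCs the averages were -0.71 ± 0.04 and -0.61 ± 0.08. Leaving a library out also removes it from the profiles, and the difference was then 0.18 without PND30 replicate 2 and 0.33 without its replicate 1. For PND10 it was 0.90 with replicate 1 left out and 1.05 with replicate 2 left out. With profiles that weighted the stages equally it was 0.63.

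**Figure D3:**
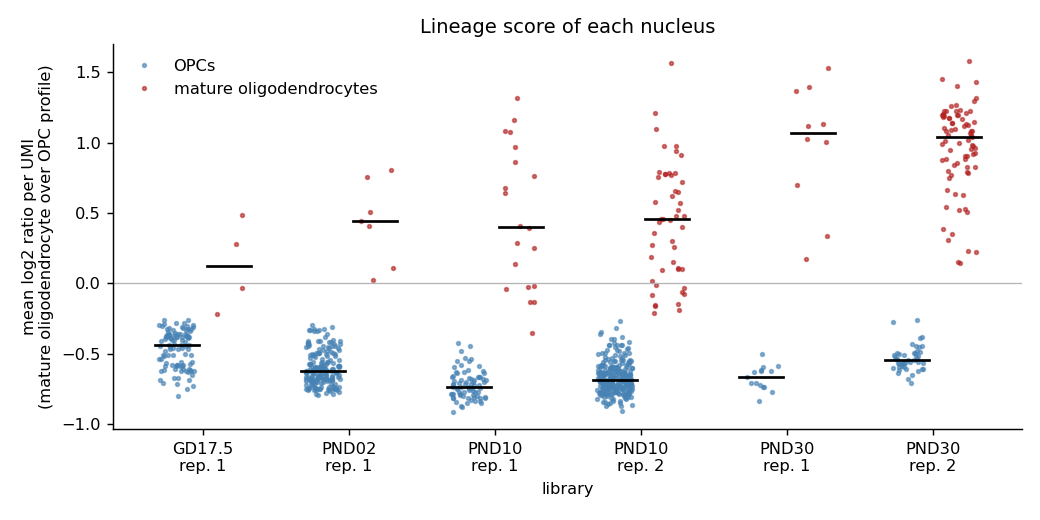
Lineage score of each OPC nucleus (blue) and mature oligodendrocyte nucleus (red) by library, in mean log2 ratio per UMI, with black bars at the medians. The clusters do not overlap in any library, and the medians of mature oligodendrocytes are 0.40 and 0.45 at PND10, against 1.07 and 1.04 at PND30.

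The summed expression profile of mature oligodendrocytes differed between PND10 and PND30. A sum mixes nuclei, and the part of a changed mix of nuclei in this difference was not tested. In counts summed per library, 781 of 4534 tested features (17.2%) passed an adjusted p under 0.05 (edgeR, quasi-likelihood, Benjamini-Hochberg). Of these, 469 (10.3% of those tested) were higher at PND30, with a median log2 change of 2.06 and a range of 0.87 to 7.87. The other 312 (6.88%) were lower, with a median of -1.62 and a range of -6.53 to -0.90. At least 4-fold changes made up 246 of the higher and 78 of the lower features, while the median over all tested features was -0.01. DESeq2 called 370 features, 244 of the higher and 125 of the lower set among them. Without PND10 replicate 1 the count was 283.

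The changed features were a large part of the RNA of these nuclei. The sets were chosen on the PND10 and PND30 sums, so the direction of their change between these stages was fixed by the choice. The 469 features higher at PND30 held 6.22% and 5.51% of the UMIs of mature oligodendrocytes at PND10, against 23.5% and 19.9% at PND30. The 312 lower features held 23.2% and 23.0% at PND10 and 7.15% and 7.86% at PND30. In the libraries of GD17.5 and PND02, which the test did not use, the higher set held 3.66% and 4.48% of the UMIs of mature oligodendrocytes, and the lower set held 26.6% in both. In these sums each early library lay on the PND10 side of the change, and beyond both PND10 libraries. Medians over single nuclei lay on the PND10 side too, but not all beyond. In the higher set they were 3.49% at GD17.5 and 4.50% at PND02, against 4.41% and 4.23% at PND10. In the lower set they were 23.48% and 26.41%, against 24.95% and 23.51%. OPC sums held 5.07 to 6.35% in the higher set and 12.6 to 19.1% in the lower set over the 6 libraries.

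Row 31240 was among the features that rose, by 2.12 on the log2 scale (standard error from DESeq2 0.35, adjusted p = 0.00135 with edgeR). Its PND30 libraries lay above its PND10 libraries, as they did for all 469 features called higher. In OPCs its log2 change was 1.45 (adjusted p = 0.237 with edgeR), and the changes in the clusters differed by 0.69 (adjusted p = 0.422). Row 11922 had a log2 change of 0.73 in mature oligodendrocytes (adjusted p = 0.109 with edgeR). Of the 69 features higher in mature oligodendrocytes than in OPCs, 25 rose to PND30, 6 fell and 38 did not pass the test, with a median log2 change of 0.61. Of the 108 lower features, 50 had enough counts to be tested, of which 13 fell, 2 rose and 35 did not pass, with a median of -0.81. For all tested features the share that rose was 10.3% and the share that fell 6.88%. A scarce feature can pass the filter on counts through a single stage, so the calls in the lower set depend in part on the filter.

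**Figure D4:**
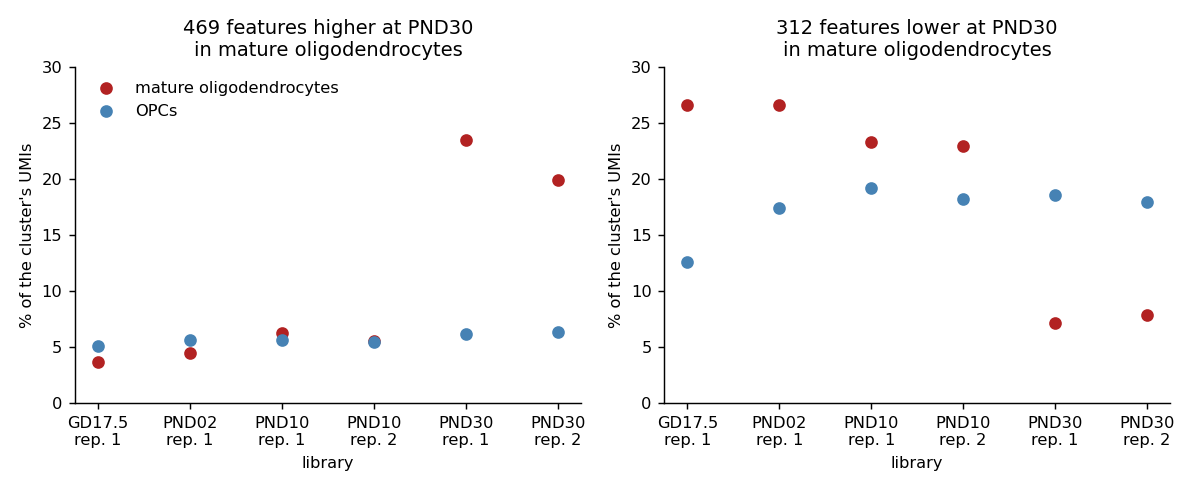
Percentage of a cluster's UMIs in the 469 features higher (left) and the 312 features lower (right) at PND30 than at PND10 in mature oligodendrocytes, 1 point per library. The values of mature oligodendrocytes (red) at PND10 and PND30 were used to choose the sets, while GD17.5, PND02 and OPCs (blue) were not. In mature oligodendrocytes the higher set goes from 5.51 and 6.22% to 19.9 and 23.5%, and OPCs stay between 5.07 and 6.35%.

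OPCs of the same libraries showed a far smaller number of calls. Between PND10 and PND30, 2 of 6043 features (0.0331%) passed in OPCs with edgeR. At an unadjusted p under 0.05 there were 585, and 13 were called by DESeq2. Without a filter on low counts edgeR called 71. Leaving out either PND10 library gave 30 calls (replicate 1 out) and 26 (replicate 2 out), and leaving out either PND30 library gave 50 (replicate 1 out) and 37 (replicate 2 out). In simulated OPC sums of the same size the test recovered 170 of 200 features changed 4-fold, with 11 false calls. The changed features were drawn from those with higher counts, and all features had the same spread between libraries. Smaller changes and scarce features were not simulated, so the recovery does not apply to them. The median size of the log2 change over all tested features was 0.34 in OPCs and 0.51 in mature oligodendrocytes.

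The difference between the changes was tested directly, with the library as a block. Of 5614 features, 511 (9.10%) changed differently from PND10 to PND30 in mature oligodendrocytes and in OPCs. The change was more positive in mature oligodendrocytes for 244 (4.35%), with a median difference of 2.36 on the log2 scale, and more negative for 267 (4.76%), with a median of -1.78. Of the 511, 394 were also called in mature oligodendrocytes alone and 1 in OPCs alone. Among the 430 with a fitted change in both clusters, 392 had the larger change in mature oligodendrocytes. This count was not set against all tested features. Their changes were also larger in mature oligodendrocytes, with a median size of 0.51 against 0.34 in OPCs, so it is no finding about the 511. DESeq2 called 115. Without PND10 replicate 1 the count was 199, without PND10 replicate 2 it was 163, and with as many OPC nuclei as mature oligodendrocyte nuclei it was 271.

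The same contrast appears in the likeness of whole profiles. With each sum thinned to 102195 UMIs, the profiles of mature oligodendrocytes correlated across 3797 features at r = 0.84 between the PND10 libraries and at 0.79 between the PND30 libraries, but at 0.51 to 0.60 between stages. OPCs treated in the same way gave 0.84 and 0.82 within stages and 0.80 to 0.81 between stages, across 3806 features. Thinned to the 20418 UMIs of GD17.5, the mature oligodendrocytes of GD17.5 correlated at 0.49 with those of PND02, at 0.44 with both PND10 libraries, and at 0.18 and 0.21 with the PND30 libraries. These are descriptions across features, which are not independent replicates.

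Nuclei were then scored singly for stage. The stage score is the mean over UMIs of the log2 ratio of a feature's share in a PND30 and in a PND10 profile of mature oligodendrocytes, made from the libraries of the other replicate number. Library medians were -0.48 and -0.49 at PND10 and 0.62 and 0.68 at PND30, a difference of 1.14 between the means (exact permutation p = 0.33, the smallest possible). Scored with profiles of their own cluster, OPCs differed by 0.05 between stages, mature astrocytes by 0.16, Avp+ neurons by 0.08 and Vip+ neurons by 0.09. Profiles held 102195 and 260062 UMIs for mature oligodendrocytes and 112460 and 116161 for OPCs. Those of Avp+ neurons held 3395101 and 4789698, and the size of a score can depend on this depth, so astrocyte and neuron values are not on the same scale. The nuclei of GD17.5 and PND02 had medians of -0.49 and -0.44.

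Nuclei fell into a lower and an upper range, and 6 of 169 lay within 0.2 of 0. At PND10, 4 of 20 nuclei of replicate 1 (20%, exact 95% interval 5.73 to 43.7%) and 3 of 49 of replicate 2 (6.12%, 1.28 to 16.9%) were above 0, the PND30 side. At PND30 these were 7 of 10 (70.0%, 34.8 to 93.3%) and 58 of 79 (73.4%, 62.3 to 82.7%). Of the early nuclei, 0 of 4 at GD17.5 (upper bound 60.2%) and 0 of 7 at PND02 (upper bound 40.96%) were above 0. Both sides were thus present at both stages, and the medians within each side also differed between stages. On the PND30 side they were 0.32 and 0.46 at PND10, against 0.69 and 0.74 at PND30. On the PND10 side they were -0.49 and -0.51 in 16 and 46 nuclei at PND10, against -0.45 and -0.38 in 3 and 21 nuclei at PND30. The sides are ranges of a score and not cell types.

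**Figure D5:**
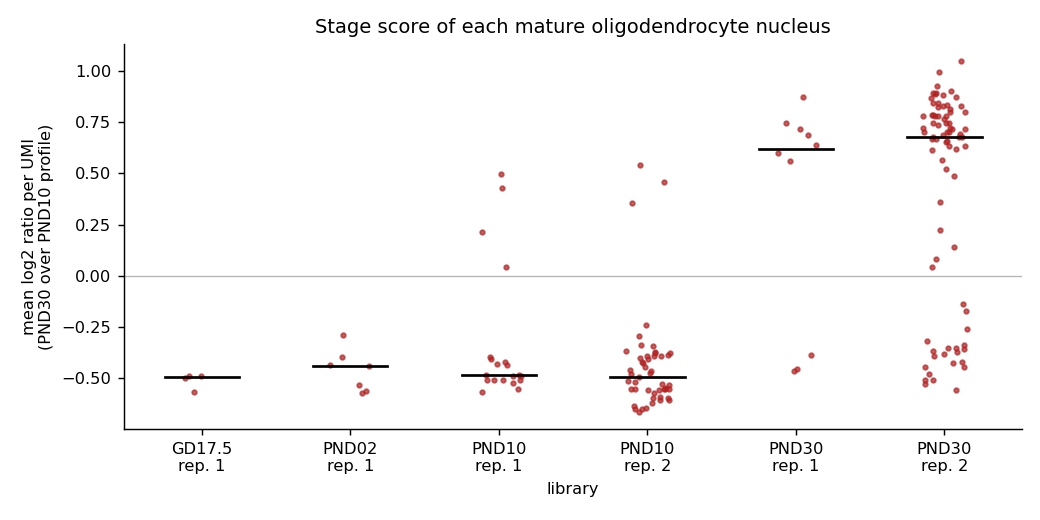
Stage score of each mature oligodendrocyte nucleus by library, in mean log2 ratio per UMI, with black bars at the medians and a grey line at 0. In the PND10 libraries 4 of 20 and 3 of 49 nuclei lie above 0, in the PND30 libraries 7 of 10 and 58 of 79, and few nuclei lie near 0.

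Other measures are given for the sides as values, without a test, since they rest on the same UMIs as the score. On the PND30 side the median lineage score was 1.12 and 1.21 at PND10 and 1.13 and 1.09 at PND30, and on the PND10 side it was 0.27 and 0.44 at PND10 and 0.34 and 0.63 at PND30. Row 31240 was at 26888 and 30772 CPM in the PND30-side nuclei of the PND10 libraries and at 46094 and 39514 in those of the PND30 libraries. In the PND10-side nuclei it was at 4311 and 4842 CPM at PND10, and at 5918 and 6194 at PND30. This row is part of the score and helped to set the side of a nucleus, so the difference between the sides is no finding. Row 11922 went from 297 and 463 CPM on the PND10 side to 5892 and 7183 on the PND30 side in the PND10 libraries, and stood at 2568 and 2546 CPM on the PND30 side of the later libraries. Depth did not separate the sides in a uniform way, with medians of 6987 against 9188 UMIs in PND10 replicate 1 and 13846 against 7435 in PND30 replicate 1 (PND30 side first). The sums of each side, thinned to 20418 UMIs, were also correlated across features. Between stages, sums of the same side gave r = 0.41 to 0.54 (PND10 side) and 0.32 to 0.45 (PND30 side). Within a stage they gave 0.46 to 0.56 and 0.44 to 0.52. Sums of different sides gave 0.13 to 0.28 within a stage and 0.11 to 0.31 between stages. The PND10-side sums include those of GD17.5 and PND02.

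Features shared with progenitors also differed between the sides. A set of 27 features that were at least 8-fold higher in OPCs than in neurons and mature astrocytes held 1.75 to 2.11% of the UMIs of OPCs. At PND10 it held 1.91% and 2.04% of the UMIs of mature oligodendrocytes, more than the 1.78% and 1.75% in OPCs of the same libraries. At PND30 it held 1.16% and 0.952%, against 1.95% and 2.11% in OPCs. On the PND10 side the median over nuclei was 2.25% and 2.19% at PND10, and 3.18% and 1.72% at PND30. On the PND30 side it was 0.679% and 0.603% at PND10, and 0.639% and 0.546% at PND30. Sets of other cell types, which are described next, had higher medians on the PND30 side, by unlike amounts between libraries and sets. In PND10 replicate 1 the median on the PND30 side and on the PND10 side was 0.438% and 0.135% for endothelial cells, 0.263% and 0.0705% for microglia and 0.250% and 0.165% for neurons. In PND30 replicate 2 it was 0.415% and 0.143%, 0.154% and 0.114%, and 0.763% and 0.295% for the same sets. PND10 replicate 2, with 3 nuclei on the PND30 side, gave 0.402% and 0.113%, 0.189% and 0.0853%, and 0.180% and 0.175%. The sides thus barely differed there in the neuron set, and the mature astrocyte set gave 0.139% and 0.118%. Of the 27 OPC features, 18 were tested between stages in mature oligodendrocytes, of which 6 fell and 3 rose, against 6.88% and 10.3% of all tested features. A scarce feature can pass the filter on counts through a single stage, so these calls depend in part on the filter.

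RNA typical of other cell types moved with the stage as well. A set of 24 features at least 8-fold higher in neurons than in OPCs and mature astrocytes held 0.197% and 0.241% of the UMIs of mature oligodendrocytes at PND10 and 0.706% and 0.764% at PND30, against 3.41 to 4.72% in neurons. No feature of it was at 0 in all 4 libraries, and of the 11 that were tested 7 rose and 0 fell, where 10.3% of all tested features rose and 6.88% fell. Of the features of mature astrocytes 16 were tested, of which 6 rose and 0 fell, and of those of endothelial cells 16 were tested, of which 9 rose and 0 fell. Of 7 tested features of microglia, 2 rose and 1 fell. The 72 features of mature astrocytes held 0.157% and 0.183% at PND10, against 0.340% and 0.248% at PND30, the 109 of microglia 0.103 to 0.159%, and the 175 of endothelial cells 0.137 to 0.166% at PND10 and 0.337 to 0.406% at PND30. These sets were made without regard to mature oligodendrocytes, which may use some of their features themselves. Of the 372 features in the 4 sets, 48 were tested and 23 of these (47.9%) were called, 22 of them rising, against 758 of 4486 tested features outside the sets (16.9%). The sets thus held 23 of the 781 calls. The filter on counts keeps a feature with enough counts in the libraries of a single stage. A scarce feature could thus be tested if it was high at one stage, while those low throughout were left out. The share called in these scarce sets is therefore in part set by the filter. In OPCs of the same libraries the neuron set held 0.212 to 0.368%. In microglia, over which no fold was required, it held 0.484 to 2.13%. The part of such RNA in the stage differences was not tested.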

How the data were processed

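The authors isolated nuclei from pooled SCN, made 10x Genomics libraries and counted UMIs with Cell Ranger 5.0.1 on the mouse mm10 reference. The deposited values are raw counts of UMIs, not normalized, for every row and barcode, with a table with the cluster of each retained nucleus. Per the study's methods these nuclei had at least 750 UMIs, 500 to 10000 genes, at most 2.5% mitochondrial and 3% ribosomal reads and a scrublet doublet score under 0.15, and were clustered in Seurat 4. Nuclei that the authors predicted to be doublets were thus left out before deposit, and remaining doublets were not searched for here. The annotation was used as deposited.

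Nuclei were placed in libraries by barcode. The library was the replicate in all tests. Shares have exact Clopper-Pearson intervals at the 95% level. Counts were summed per library and cluster and tested with edgeR 4.0.16 (TMM, filterByExpr, quasi-likelihood test) in R 4.3.3. DESeq2 1.42.0 was an alternative. On simulated counts the stage test in mature oligodendrocytes recovered 189 of 200 features changed 4-fold among 4534. The OPC test recovered 170 of 200 among 6043 and the interaction 130 of 200 among 5614. The changed features were drawn from those with higher counts, with the same spread for all features, and smaller changes were not simulated. Score profiles were thinned to equal UMIs, with 0.5 counts added per feature. Other steps used Python 3.11.15, numpy 2.4.6 and scipy 1.17.1.

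Since rows carry no names, the rule was to single out by row number the 2 features with the highest and the 2 with the lowest smallest ratio of mature oligodendrocytes to OPCs over the 4 libraries. The members, sets and tests were chosen with earlier results of these data known. The sets of features of other cell types, the sides of the stage score and the equally weighted profiles were added after values had been seen. No sequence is shown, since no feature has a name to match.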

Additional observations from a re-analysis of the deposited data

Results flagged for a closer look

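The stage change differed between the 2 clusters of the lineage. A test of the difference itself, the interaction of cluster and stage with edgeR, called 511 of 5614 features, 244 with the more positive and 267 with the more negative change in mature oligodendrocytes. Groups of 2 libraries are too small for a search for libraries that stand apart.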

How the results depend on the processing

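Of 64 recomputed values, 47 kept their direction, their side of the threshold and, for counts, a size within 1.5 times. Tests between 2 and 2 libraries and over 4 pairs cannot pass 0.05, so their p says nothing of stability. The difference in the share of all nuclei ranged from -0.0986 to 0.331 when 1 library was left out, reversing without PND10 replicate 2, and the difference in the share of both clusters from 22.0 to 45.2. UMIs per nucleus ranged from 0.37 to 0.56 on the log2 scale, and the lineage score difference from 0.18 to 1.05. Features at 750 UMIs ranged from -0.09 to -0.05, passed with all 6 libraries (-0.0769, exact sign-flip permutation p = 0.0313, the smallest 6 pairs allow) and reversed without thinning (0.23). The stage score could not be recomputed without a library, since each nucleus is scored from the libraries of the other number.

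Stage calls in mature oligodendrocytes were 370 with DESeq2 and 283 to 737 with 1 library left out. In OPCs they were 13 with DESeq2, where 4335 features had no adjusted p, 71 without a filter on low counts, 97 with the replicate block and 26 to 50 with 1 library left out. Calls of the interaction were 115 with DESeq2, 339 without the filter, 271 with equal numbers of nuclei and 163 to 390 with 1 library left out. A library left out leaves 1 stage with 1 library, which is assumed to vary like the others. Same-numbered libraries did not deviate together (correlation of deviations 0.00079 in mature oligodendrocytes and 0.011 in OPCs), so the numbers were not taken as pairs. With a replicate block there were 746 calls in mature oligodendrocytes and 452 for the interaction. The cause of these differences was not tested. GD17.5 and PND02 have only 4 and 7 of these nuclei, which limits what their values can show.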
